A study of Mus musculus with 11 samples.

Results

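Acute-phase genes encode secreted proteins whose levels change in the blood and at sites of injury during inflammation. The liver makes most of them, and epithelial cells and macrophages of the lung make some locally. In hepatocytes and epithelial cells, cytokines of the interleukin-6 family act through STAT3 on many of these genes, while interleukin-1 and tumour necrosis factor act through NF-κB and C/EBP factors. The described genes are Serpina3n, Serpina3m, Serpina3g and Serpina3f of the mouse Serpina3 cluster of serine protease inhibitors, Lrg1, Saa3, Lcn2, Hp and Cp. They are the 9 rows of the deposited table, out of 14700, that carry these gene names, and each was kept by the filter on low counts. They were chosen with the bleomycin and saline values of these same libraries known, so their differences between groups are a description and carry no test.

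Lungs came from C57BL/6 mice aged 8 weeks. The 6 saline libraries came from mice given saline, and the 5 bleomycin libraries from mice given bleomycin at 3 U/kg. Each was given in 50 µL into the trachea on day 0, and lungs were taken on day 3. Bleomycin is a glycopeptide that breaks DNA and injures the alveolar lining. No transgene, deletion or other agent is named in the labels, which describe whole lung, so a change in cell numbers and a change in RNA per cell cannot be told apart in any value here. The labels do not say that each library came from a separate animal, and p-values therefore measure the spread between libraries, which may be technical. Total counts per library ran from 13226339 to 19009284. Lung markers were present in every library, with the type 2 cell gene Sftpc between 6840.2 and 30370.2 CPM. CPM here means counts scaled to a common library size by TMM, which corrects for library composition. Libraries saline 2 and 3 stood apart in macrophage and interferon genes, and saline 1 and 4 in club cell genes, so results are also given without each pair.

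Among the 4 measured Serpina3 genes on the list, Serpina3n and Serpina3m lay higher in every bleomycin library than in any saline library, whereas Serpina3g and Serpina3f were lower in bleomycin, with saline 4 inside the bleomycin range. Lrg1 was higher throughout, like Serpina3n. Saa3 was set by saline 2 and 3, and Hp and Cp were highest in saline 1 and 4. By edgeR's quasi-likelihood test over all 14478 genes tested, 5 of the 9 members passed, as did 10.3% of all genes. Of these, 3 members passed the threshold upwards (Serpina3n, Serpina3m and Lrg1), as did 4.63% of all genes, and 2 passed downwards (Serpina3g and Serpina3f), as did 5.70%. Over all genes 671 were higher and 825 lower, or 894 and 380 with total-count scaling. In 3 of the 9 members, Serpina3n, Serpina3m and Lrg1, the groups did not overlap with bleomycin above, as in 3.99% of all genes, and in 0 members with bleomycin below, as in 4.41% (8.41% in either direction). Without saline 2 and 3, 7 members passed (19.2% of genes), with 4 higher (9.22%) and 3 lower (9.97%), and 4 did not overlap (16.3%). Without saline 1 and 4, 4 members passed (6.04%), with 2 higher (1.97%) and 2 lower (4.07%), and 5 did not overlap (11.5%). Leaving out libraries can keep or raise the number of members that do not overlap, and cannot lower it. Nothing is read from these counts, since the members were chosen on this contrast.

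**Figure D1:**
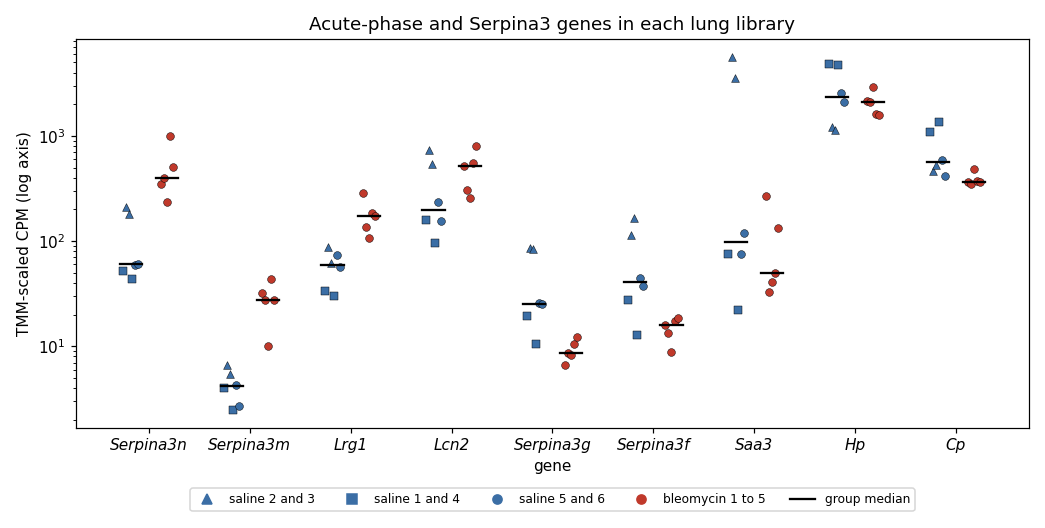
TMM-scaled CPM (log axis) of the 9 genes in the 6 saline (blue) and 5 bleomycin (red) libraries, with the group median as a black line. For Serpina3n, Serpina3m and Lrg1 all red points lie above all blue points, while the highest Saa3 points are saline 2 and 3 (triangles) and the highest Hp and Cp points are saline 1 and 4 (squares).

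The mouse Serpina3 cluster on chromosome 12 arose by duplication of what is a single gene, SERPINA3 (alpha-1-antichymotrypsin), in humans. In RefSeq's annotation of GRCm38.p6 it holds 14 Serpina3 genes and pseudogenes, 10 of them protein-coding, and 7 were measured here. The build named by the submitters is GRCm39, so only the order of the genes is used. Serpina3f and Serpina3g are near neighbours in that order, with a single pseudogene between them, and Serpina3m and Serpina3n are neighbours at the far end, with a non-coding RNA gene between them. The stretches in front of the start sites are shown because the 4 listed genes fall into 2 pairs. How alike these stretches are as wholes was not measured. No promoter of Serpina3m was available. Below are the 150 bases before the annotated start of 3 Serpina3 genes and of Saa3, 5′ to 3′ on the gene's strand, from RefSeq's GRCm38.p6 tables. Capitals mark matches, on either strand, to 4 searched motifs, which are the STAT motif TTCNNNGAA, the C/EBP motif TTGCNNAA, an interferon response motif (GAAA, any 2 bases, GAAA) and the NF-κB consensus.
Serpina3n, chr12:104406558-104406707, plus strand: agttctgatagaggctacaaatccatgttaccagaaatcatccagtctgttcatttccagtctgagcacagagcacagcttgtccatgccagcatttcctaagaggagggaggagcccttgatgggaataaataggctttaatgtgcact
Serpina3g, chr12:104235997-104236146, plus strand: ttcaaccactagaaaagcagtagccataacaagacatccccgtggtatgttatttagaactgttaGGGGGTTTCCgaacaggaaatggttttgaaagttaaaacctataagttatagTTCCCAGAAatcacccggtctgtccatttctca
Serpina3f, chr12:104214394-104214543, plus strand: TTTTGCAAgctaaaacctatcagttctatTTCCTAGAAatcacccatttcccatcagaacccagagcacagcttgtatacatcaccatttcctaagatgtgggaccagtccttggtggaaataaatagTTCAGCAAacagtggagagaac
Saa3, chr7:46715677-46715826, minus strand: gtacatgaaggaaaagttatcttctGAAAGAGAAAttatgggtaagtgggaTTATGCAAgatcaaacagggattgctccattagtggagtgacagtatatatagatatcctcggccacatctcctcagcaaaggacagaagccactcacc

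Of the 9 members, 7 had a promoter in the RefSeq table (9 start sites, with 2 each for Cp and Serpina3f). Serpina3m and Hp had none and were not searched, so the motifs cannot be compared between the 2 neighbouring pairs as wholes. Within the 250 bases before the start, the STAT motif was found in Serpina3g and Serpina3f, against 7.02% of 32851 promoters of the same length. The NF-κB consensus was found in Serpina3g (3.90% of promoters), the interferon response motif in Saa3 (2.98%), and the C/EBP motif in Serpina3f, Saa3, Lcn2 and Cp (9.56%). The STAT match of Serpina3g, TTCCCAGAA, lies 33 to 25 bases before its start. In each other Serpina3 promoter, the most similar stretch was taken from the window of 21 bases with the fewest mismatches, and promoters were not aligned. In Serpina3f it is TTCCTAGAA (3 mismatches of 21), which differs by C5T, with positions counted from 1 at the 5′ end of the 9 bases. Serpina3i, the next protein-coding gene after Serpina3g in the cluster, carries TTCCCAGAA with no difference. The most similar stretch of Serpina3n, TTACCAGAA, differs by C3A and does not match the motif. The 9 bases found in Serpina3c are the same as in Serpina3n. In Serpina3n and Serpina3c these stretches lie 123 to 115 and 120 to 112 bases before the start, with 6 and 7 mismatches of 21. These letters describe the sequence and were not tested as binding sites.

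Serpina3n inhibits proteases such as granzyme B in mice and is used as a marker of reactive tissue in brain and heart. It stood at 51.9, 208, 179, 43.5, 59.3 and 60.6 CPM in saline 1 to 6 and at 349, 394, 236, 991 and 507 CPM in bleomycin 1 to 5. The lowest bleomycin library was above the highest saline library, and saline 2 and 3 were the only saline libraries above 60.6 CPM. The means were 100.4 ± 73.1 (SD, n = 6) and 495 ± 293 CPM (SD, n = 5), a log2 fold change of 2.30 ± 0.50 (SE). Without saline 2 and 3 it was 3.20. Without saline 1 and 4 it was 1.99 and no longer passed. Of 12 markers of alveolar type 1 cells 6 rose by edgeR's test (8 without saline 2 and 3, and 4 without saline 1 and 4), and they summed to 1675 to 5479 CPM in saline and 4999 to 7138 CPM in bleomycin, with 0 of the 12 at 0 in any library. Over all genes 4.63% rose (9.22% without saline 2 and 3, and 1.97% without saline 1 and 4). The part of type 1 cells in the Serpina3n and Serpina3m values was not tested.

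Serpina3m, a less studied neighbour, stood at a far lower level, with 2.47 to 6.65 CPM in saline (median 4.15) and 31.9, 27.3, 10.1, 43.8 and 27.3 CPM in bleomycin 1 to 5. The groups did not overlap, and bleomycin 3 came closest to saline, as it did for Serpina3n. Its log2 fold change was 2.72 ± 0.36 (SE). In reference transcripts (GENCODE M21), 16% of the 50-base windows of Serpina3m also occur in Serpina3k and 1.12% in Serpina3n, so a part of its reads may have been lost or shared. Serpina3k itself had a mean of 5.47 CPM in saline and 3.68 CPM in bleomycin (log2 fold change -0.57 ± 0.84, edgeR adjusted p = 0.672).

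Serpina3g, known as Spi2A, inhibits cathepsins in the cytosol of activated leukocytes and is induced by interferon-gamma in macrophages. It stood at 19.5, 86.5, 84.04, 10.6, 25.8 and 25.04 CPM in saline 1 to 6 and at 6.56, 8.55, 8.24, 10.5 and 12.3 CPM in bleomycin 1 to 5. Of the 6 saline libraries, 5 were above all bleomycin libraries, and saline 4 lay within the bleomycin range. The log2 fold change was -2.18 ± 0.52 (SE), and -1.13 without saline 2 and 3. Serpina3f, whose role is little known, followed the same course. It stood at 27.5, 114, 166, 12.8, 44.3 and 37.4 CPM in saline 1 to 6 and at 15.8, 13.4, 8.72, 17.2 and 18.5 CPM in bleomycin 1 to 5, a log2 fold change of -2.19 ± 0.58 (SE), or -1.05 without saline 2 and 3. Saline 4 was the single saline library that overlapped the bleomycin libraries. The pass of Serpina3g was lost without bleomycin 2, 3, 4 or 5, and that of Serpina3f without saline 2 or 3 or any 1 of the bleomycin libraries. Both also lost it with limma on log2(FPKM + 1) and with blocking on replicate number, where 1 member passed upwards and 0 downwards. With total-count scaling 1 member passed downwards.

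Levels of different genes were compared in FPKM, the authors' length-corrected unit. Within a library, the FPKM ratio of Serpina3n to Serpina3g was 5.23, 4.74, 4.19, 8.07, 4.52 and 4.77 in saline 1 to 6, and reached 104.8, 90.7, 56.5, 186 and 80.9 in bleomycin 1 to 5. The ratio does not depend on how libraries are scaled. Saline 2 and 3, in which each gene was high, had ratios of 4.74 and 4.19, against 4.52 to 8.07 in the other saline libraries. Serpina3n was higher and Serpina3g lower in bleomycin, and both were chosen with these values known. The difference in their ratio between groups follows from that and carries no test. The ratio of Serpina3n to Serpina3m overlapped between groups (saline 20.8 to 52.3, bleomycin 17.6 to 37.6), and that of Serpina3g to Serpina3f stayed between 0.666 and 1.51 in all 11 libraries. Between Serpina3g and Serpina3f, 6.67% of the 50-base windows of Serpina3g are shared, so a small part of their likeness may come from shared reads, and this part was not tested. With windows of 100 bases, 0.204% of Serpina3n windows, 6.09% of Serpina3m, 4.64% of Serpina3g and 3.58% of Serpina3f occur in another gene's transcript.

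**Figure D2:**
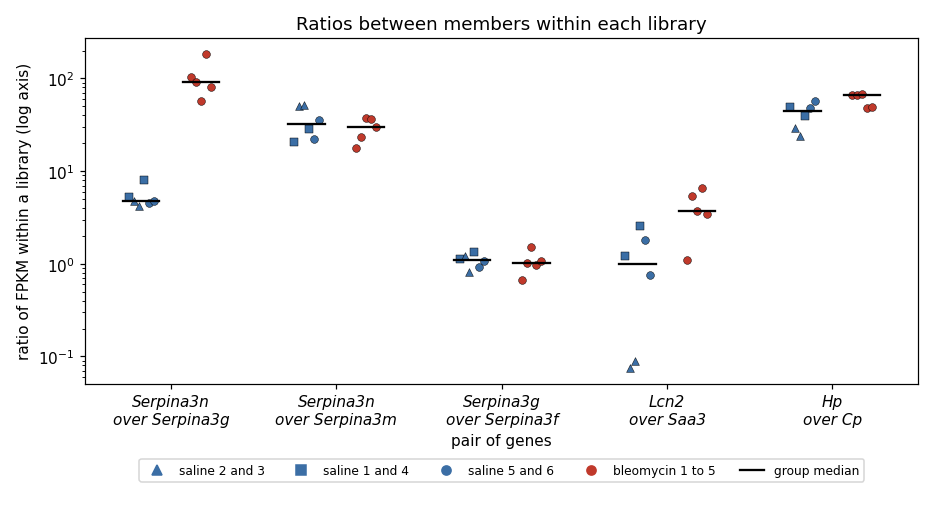
Ratio of the FPKM of pairs of genes within each library (log axis), with group medians as black lines. The ratio of Serpina3n to Serpina3g lies between 4.19 and 8.07 in saline and between 56.5 and 186 in bleomycin, whereas the ratios within each neighbouring pair overlap between groups.

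Along the cluster, the other 3 measured genes were Serpina3c, Serpina3i and Serpina3k, named after their values were seen because they complete it. Serpina3i, next to Serpina3g, had 16.7 and 15.6 CPM in saline 2 and 3, while saline 1, 4, 5 and 6 had 1.61 to 2.65 CPM, against 1.28 to 6.66 CPM in bleomycin (log2 fold change -0.83 ± 0.73, edgeR adjusted p = 0.467). Its fold change was 0.87 without saline 2 and 3, so its sign turned. Serpina3c had means of 6.55 ± 2.53 (SD, n = 6) and 11.4 ± 4.43 CPM (SD, n = 5), with a log2 fold change of 0.80 ± 0.34 that did not pass (edgeR adjusted p = 0.14).

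**Figure D3:**
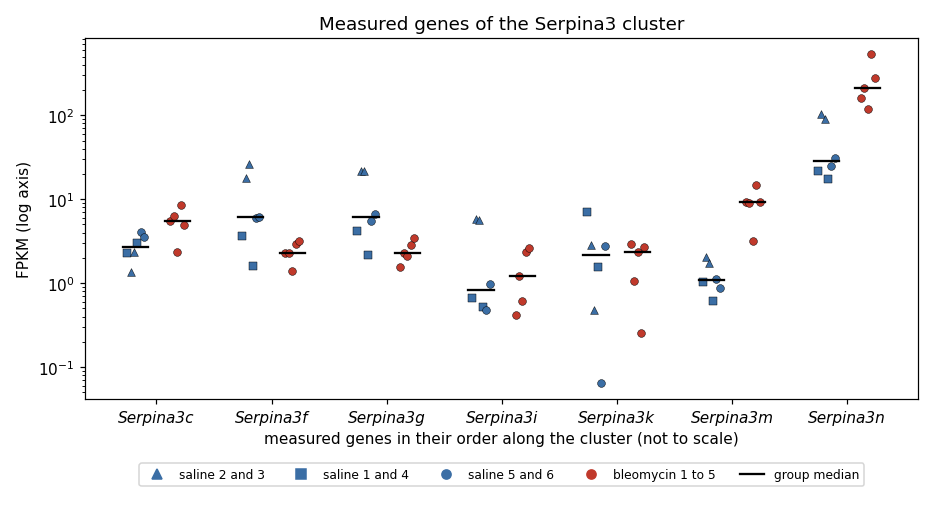
FPKM (log axis) of the 7 measured genes of the Serpina3 cluster, placed in their order along chromosome 12 (spacing not to scale), in saline (blue) and bleomycin (red) libraries with group medians. Serpina3f and Serpina3g are higher in most saline libraries, and Serpina3m and Serpina3n in all bleomycin libraries.

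Lrg1 encodes a secreted leucine-rich glycoprotein that binds the TGF-beta co-receptor endoglin on endothelial cells and is made by liver, neutrophils and activated endothelium. It stood at 33.6, 88.6, 61.5, 29.9, 74.2 and 57.2 CPM in saline 1 to 6 and at 286, 135, 106, 187 and 172 CPM in bleomycin 1 to 5. The groups did not overlap, and here bleomycin 1, not bleomycin 4, was the highest. The log2 fold change was 1.62 ± 0.32 (SE), with 1.86 and 1.36 without saline 2 and 3 and without saline 1 and 4. Of 21 listed partners in TGF-beta reception and signalling, 2 passed edgeR's test, with a median log2 fold change of 0.12 against -0.04 over all genes. Eng, the endoglin gene, rose from 217 ± 94.8 (SD, n = 6) to 467 ± 38.03 CPM (SD, n = 5, edgeR adjusted p = 0.0241). Id2, an inhibitor of helix-loop-helix transcription factors, fell from 176 ± 36.9 to 82.9 ± 13.6 CPM (edgeR adjusted p = 0.00538). Id3, the list gene with the highest mean FPKM, stood at 122 ± 32.9 and 135 ± 23.4 CPM (edgeR adjusted p = 0.632). For Eng the adjusted p reached 0.0585 when bleomycin 2, 4 or 5 was dropped, and 0.0649 when saline 1 and 4 were, so its call then ended. Of 13 endothelial markers 3 rose (2 without saline 2 and 3, and 0 without saline 1 and 4), and their summed level was 1302 to 4279 CPM in saline and 3619 to 4548 CPM in bleomycin. Over all genes 4.63% rose (9.22% without saline 2 and 3, and 1.97% without saline 1 and 4). The part of endothelial cells in the Lrg1 and Eng values was not tested.

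Lcn2 encodes lipocalin 2, which binds bacterial siderophores and so withholds iron, and is made by airway and alveolar epithelium and by neutrophils. It stood at 158, 729, 541, 95.9, 235 and 154 CPM in saline 1 to 6 and at 512, 305, 257, 552 and 798 CPM in bleomycin 1 to 5. The 4 saline libraries other than 2 and 3 lay below all bleomycin libraries, while saline 2 exceeded 4 of the 5. The log2 fold change was 0.61 ± 0.51 (SE) and did not pass. It was 1.59 without saline 2 and 3, where the gene passed upwards together with Serpina3n, Serpina3m and Lrg1 (9.22% of all genes did so there), and 0.25 without saline 1 and 4. Of 15 neutrophil markers 7 were in the table and 6 tested, and edgeR called 0, with 1 at an unadjusted p under 0.05 and 0 by DESeq2. Their summed level was 182 to 614 CPM in saline and 121 to 628 CPM in bleomycin, with 2 of the 7 at 0 in at least 1 library. The remaining neutrophil markers, S100a8 and S100a9 among them, were not analysed here, so the neutrophil part of the Lcn2 and Lrg1 values was not tested.

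Saa3 encodes serum amyloid A3, the form made outside the liver in mice by macrophages, fat and epithelium. It stood at 75.4, 5674, 3566, 22.02, 76.04 and 118 CPM in saline 1 to 6 and at 269.8, 32.9, 40.8, 49.5 and 134 CPM in bleomycin 1 to 5. Saline 2 held 258 times the level of saline 4, and the other 4 saline libraries fell inside or below the bleomycin range. The fitted log2 fold change of -3.91 ± 1.46 (SE) did not pass and became 0.53 without saline 2 and 3. Saa3 was not linked to Lcn2 in a fixed proportion, since the FPKM ratio of Lcn2 to Saa3 was 0.0751 and 0.0888 in saline 2 and 3, 0.76 to 2.55 in the other saline libraries and 1.11 to 6.52 in bleomycin. The summed level of 15 monocyte and recruited macrophage markers reached 5218 and 3757 CPM in saline 2 and 3, against 495 to 1229 CPM in saline 1, 4, 5 and 6 and 462 to 1027 CPM in bleomycin. Of those 15, 2 fell by edgeR's test (5.70% of all genes), with 13 at an unadjusted p under 0.05 and 10 called by DESeq2. Without saline 1 and 4, 8 fell (4.07% of all genes). Ctss, the cathepsin S gene of macrophages, had 3690.2 and 2542 CPM in saline 2 and 3, and saline 1, 4, 5 and 6 had 155 to 671 CPM. The part of macrophages in the Saa3 values was not tested.

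Beside Serpina3g and Serpina3f, T and natural killer cell markers also fell, with 13 of 16 passing downwards in edgeR's test and a summed level of 152 to 574 CPM in saline and 32.04 to 89.2 CPM in bleomycin, groups that do not overlap. Over all genes 5.70% passed downwards. Each of the 16 markers had reads in all libraries, and Gzma and Gzmb also stand in the protease list described later. Saline 5 held the highest sum of these markers, at 574 CPM, where Serpina3g was at 25.8 CPM, while saline 2, at 310 CPM of the markers, held 86.5 CPM of Serpina3g. The part of lymphocytes in the Serpina3g and Serpina3f values was not tested.

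Hp encodes haptoglobin, which captures free haemoglobin, and Cp encodes ceruloplasmin, a copper-carrying ferroxidase. Hp had the highest median of the 9 per length in each group, at 775 FPKM in saline and 699.8 FPKM in bleomycin, although in saline 2 and 3 Saa3 stood above it, at 1778 and 1139 FPKM. The lowest Hp value lay above the highest of the gene next in order of medians. Hp stood at 4770.4, 1223, 1126, 4766, 2546 and 2119 CPM in saline 1 to 6 and at 2125, 2107, 2935, 1596 and 1578 CPM in bleomycin 1 to 5. The bleomycin libraries lay between saline 2 and 3 below and saline 1 and 4 above. Its reads made up 0.414% of all counts in saline 1 (95% Wilson interval 0.411 to 0.416, counting error only) and 0.117% in saline 3 (0.115 to 0.119). The log2 fold change was -0.42 ± 0.41 (SE), and it turned to 0.26 without saline 1 and 4.

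Cp stood at 1083, 464, 530.4, 1339.6, 590.4 and 414 CPM in saline 1 to 6 and at 362, 351, 486, 374 and 362 CPM in bleomycin 1 to 5. Saline 1, 3, 4 and 5 were above all bleomycin libraries, and saline 2 and 6 were within their range. The log2 fold change was -0.93 ± 0.31 (SE) and did not pass, or passed downwards without saline 6 and without saline 2 and 3 (-1.15). Without saline 1 and 4 it was -0.34. The summed level of 11 club cell markers was 172572 and 185151 CPM in saline 1 and 4 and 29629.9 to 96602 CPM in the other saline libraries, against 21314 to 78136 CPM in bleomycin, and 3 of the 11 fell (6 without saline 2 and 3, and 0 without saline 1 and 4). The part of club cells in the Hp and Cp values was not tested. Adipocyte markers (9 tested) summed to 284 and 682 CPM in saline 1 and 4. They summed to 67.8 to 248 CPM in the other saline libraries and 58.6 to 93.9 CPM in bleomycin. By edgeR's test 2 fell (8 without saline 2 and 3, and 0 without saline 1 and 4), and DESeq2 called 7. Over all genes 5.70% fell by edgeR's test (9.97% and 4.07% in those fits), and DESeq2 called 2864 genes where edgeR called 1496. The part of fat cells in the Hp and Cp values was not tested. Of 12 markers of hepatocytes, the cells that make circulating haptoglobin and ceruloplasmin, edgeR called 0 (2 at an unadjusted p under 0.05, and 0 by DESeq2), and they summed to 21.9 to 227 CPM in saline and 23.1 to 94.2 CPM in bleomycin. Saline 1 held the highest hepatocyte sum, with Alb, the albumin gene, at 68.5 CPM, and 4 of the 12 were at 0 in at least 1 library. The part of liver cells in the Hp and Cp values was not tested.

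**Figure D4:**
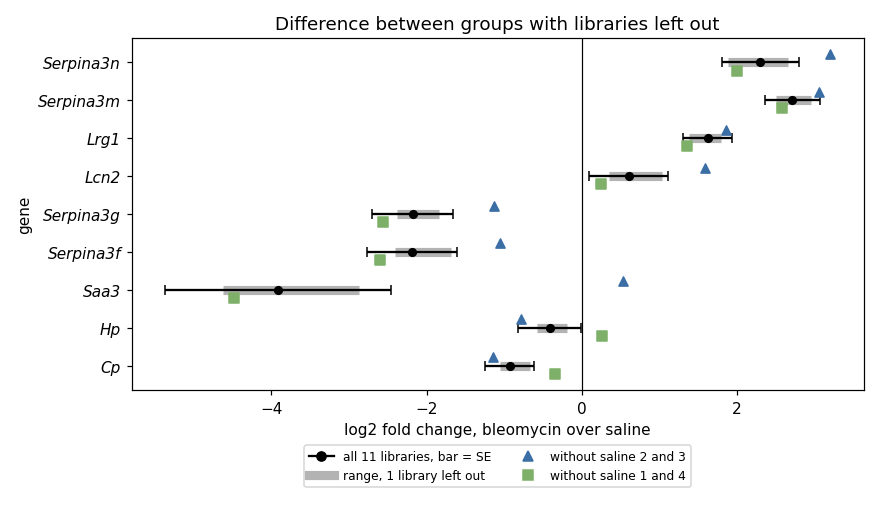
Log2 fold change of bleomycin over saline for each gene with all 11 libraries (black, bar = SE), the range when 1 library is left out (grey), and the value without saline 2 and 3 (triangles) or without saline 1 and 4 (squares). Serpina3n, Serpina3m and Lrg1 stay above 0 in all of these, while Saa3 moves from -3.91 to 0.53 and Hp from -0.42 to 0.26.

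In FPKM order, the medians in saline ran from Hp through Lrg1 (44.3), Lcn2 (33.3), Saa3 (29.7), Serpina3n (28.2), Cp (16.5), Serpina3g (6.07) and Serpina3f (6.06) to Serpina3m (1.09). In bleomycin they ran from Hp through Serpina3n (209.6), Lrg1 (138), Lcn2 (87.8), Saa3 (16.9), Cp (12.6), Serpina3m (9.17) and Serpina3f (2.312) to Serpina3g (2.311). Apart from Hp and the gene after it, the ranges of neighbours in each order overlapped. Serpina3m moved from the last place to above Serpina3f and Serpina3g, whose ranges in bleomycin, 1.40 to 3.21 and 1.54 to 3.42 FPKM, include its lowest value of 3.18.

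For each member, the genes closest in pattern were those with the smallest root mean square difference of centred log2(CPM + 0.5) over the 11 libraries, among 14477 other genes. The closest gene to Serpina3n was its neighbour Serpina3m (0.49 log2 units), followed by Pla1a (0.49) and Fstl3 (0.53). For Serpina3m they were Tmem37 (0.46), Serpina3n (0.49) and Clca3a1 (0.49). Serpina3m shares 1.12% of its 50-base windows with Serpina3n, whose FPKM was 17.6 to 52.3 times that of Serpina3m. The part of shared reads in their likeness was not tested. The closest gene to Serpina3f was Serpina3g (0.30), followed by Apol7e (0.35) and Runx3 (0.36), and for Serpina3g they were Ifi47, an interferon-inducible GTPase gene (0.23), Irf5 (0.26) and Cd300c2 (0.26), with Serpina3f in place 7. Lrg1 was closest to Sema6b (0.30), Tmem37 (0.32) and Scarb1 (0.35), and Lcn2 to the interleukin-4 receptor gene Il4ra (0.31), Adamts4 (0.32) and the zinc transporter gene Slc39a14 (0.37). Saa3 was closest to Hk3 (0.66), the C-type lectin gene Clec4e (0.78) and Nos2 (0.90), the inducible nitric oxide synthase gene, which had 609.9 and 515 CPM in saline 2 and 3 but 1.58 to 9.35 CPM in the other 9 libraries. Hp was closest to Acsl3 (0.11), Ldhb (0.13) and the ciliary transport gene Ift81 (0.14), and Cp to Cd55 (0.20), Frk (0.20) and Hebp2 (0.21), whereas Hp and Cp differed from each other by 0.46. These are descriptions over libraries that share their groups and depth.

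Of 28 other acute-phase genes tested, 4 passed edgeR's test, where 10.3% of all genes did, and each of the 4 fell. The list had a median log2 fold change of -0.94 against -0.04 over all genes. Pigr, the receptor that carries polymeric immunoglobulins across epithelium, fell from 342 ± 179 (SD, n = 6) to 91.98 ± 32.7 CPM (SD, n = 5, edgeR adjusted p = 0.0113). Reg3g, an antibacterial lectin gene of the airway, fell from 359 ± 301 to 22.6 ± 29.1 CPM (edgeR adjusted p = 0.0314), and the fibrinogen gene Fgg from 6.62 ± 6.38 to 1.39 ± 0.719 CPM (edgeR adjusted p = 0.0459). The 4th was Steap4, a metalloreductase gene, named here although outside the 3 largest falls and after its value was seen, at 81.1 ± 31.2 and 33.6 ± 10.4 CPM (edgeR adjusted p = 0.0186). Fth1, the ferritin heavy chain gene, was at 4092 ± 3175 and 2413 ± 419.8 CPM (edgeR adjusted p = 0.289). Leaving out a single library ended the call of Fgg in 9 of 11 fits, all but those without saline 3 or 6 (adjusted p up to 0.0997), of Reg3g in 6 (saline 1 or 4, or bleomycin 1, 3, 4 or 5; 0.0749) and of Steap4 in 1 (bleomycin 2; 0.0535). Without saline 2 and 3, 3 of 28 rose (9.22% of all genes) and 6 fell (9.97%). Reg3g is also on the club cell marker list.

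Of 37 genes of cytokine induction and signalling, 4 rose (4.63% of all genes) and 5 fell (5.70%) by edgeR's test (median log2 fold change -0.21, or 0.04 by limma on FPKM). Among the rises were 2 ligands of the interleukin-6 family and C/EBP delta. Lif went from 5.26 ± 2.68 (SD, n = 6) to 19.4 ± 11.3 CPM (SD, n = 5, edgeR adjusted p = 0.0276), Il11 from 0.532 ± 0.172 to 1.61 ± 0.692 CPM (edgeR adjusted p = 0.0238), and Cebpd, a transcription factor gene of the acute-phase response, from 103 ± 27.3 to 221 ± 72.6 CPM (edgeR adjusted p = 0.0149). Cebpd was highest in bleomycin 1, at 341 CPM, the library with the highest Lrg1, whereas Lif was highest in bleomycin 5 and Il11 in bleomycin 4. The falls were led by Ifng, from 5.91 ± 6.61 to 0.105 ± 0.150 CPM, with 2 bleomycin libraries at 0 (edgeR adjusted p = 0.0113), Tnf, from 20.6 ± 25.7 to 1.67 ± 1.07 CPM (edgeR adjusted p = 0.0327), and Il1b, from 96.01 ± 104.8 to 13.8 ± 8.62 CPM (edgeR adjusted p = 0.0382). Il6st, a receptor gene that passed upwards, and Irf1, which passed downwards, were named after their values were seen, and Nfkbia, with the highest mean FPKM, was at 164 ± 62.2 and 186 ± 97.9 CPM (edgeR adjusted p = 0.726). Tnf, Il1b and Ifng were highest in saline 2 and 3, as were Serpina3g, Serpina3f and Saa3.

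Calls in that list depended on single libraries. That of Lif ended when saline 1 or 4 or bleomycin 2, 3, 4 or 5 was dropped (adjusted p up to 0.0718), that of Il11 with bleomycin 4 or 5 dropped (up to 0.0633), that of Il1b with saline 2, 3 or 5 or any bleomycin library dropped (up to 0.0913) and that of Tnf with saline 2 or 3 or any bleomycin library dropped (up to 0.0804), while Cebpd and Ifng kept theirs in all 11 such fits. Without saline 2 and 3, 11 rose (9.22% of all genes) and 4 fell (9.97%), with a median of 0.28. Tnf was then at an edgeR adjusted p of 0.0557 and Il1b at 0.0674.

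**Figure D5:**
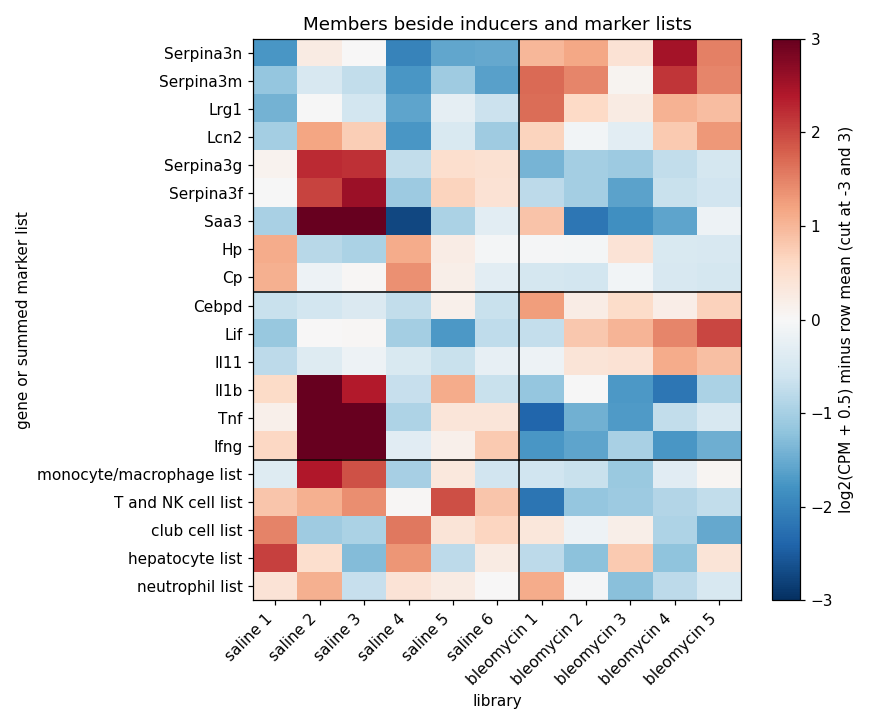
Log2(CPM + 0.5) minus the row mean in each library (colour, cut at -3 and 3) for the 9 genes, 6 genes of cytokine induction, and 5 summed marker lists. Serpina3g, Serpina3f and Saa3 share their high libraries, saline 2 and 3, with Il1b, Tnf, Ifng and the macrophage list. Hp and Cp share saline 1 and 4 with the club cell and hepatocyte lists.

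On a list of proteases and cathepsins, not all targets of such inhibitors, 6 of 22 tested fell by edgeR's test (5.70% of all genes) and 0 rose. The median log2 fold change was -0.60, or -0.16 without saline 2 and 3 and -0.82 without saline 1 and 4. Besides the 3 with the largest falls, these were Gzmb, Cma1 and Ctsw, named after their values were seen. Granzyme genes of cytotoxic lymphocytes led them, with Gzma at 88.0 ± 72.5 (SD, n = 6) and 9.82 ± 3.67 CPM (SD, n = 5, edgeR adjusted p = 0.00547) and Gzmk at 5.81 ± 3.57 and 0.731 ± 0.389 CPM (edgeR adjusted p = 0.00754). Ctss fell 6.90-fold (edgeR adjusted p = 0.0488), a call that ended when saline 2, 3 or 5 or any bleomycin library was dropped (adjusted p up to 0.113). Without both saline 2 and 3 its log2 fold change was -0.90 (edgeR adjusted p = 0.116), against -2.79 with all libraries. Of 24 genes of iron and haem handling, 1 passed, Steap4, and the median log2 fold change was -0.30. Ltf, named after its values were seen, encodes lactoferrin, an iron-binding protein of neutrophils and airway glands, and was at 188 ± 96.5 and 90.1 ± 38.9 CPM (edgeR adjusted p = 0.143).

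Of 26 other serpin genes tested, 2 passed edgeR's test (median log2 fold change -0.59). Serpinb9b, a relative of the granzyme B inhibitor Serpinb9, rose from 1.28 ± 0.398 (SD, n = 6) to 4.02 ± 1.06 CPM (SD, n = 5, edgeR adjusted p = 0.00811), and Serpinb1a, an inhibitor of neutrophil elastase, fell from 55.6 ± 19.2 to 22.9 ± 9.08 CPM (edgeR adjusted p = 0.0201). The call of Serpinb1a ended when bleomycin 2, 4 or 5 was dropped (adjusted p up to 0.0561). Serping1, the complement C1 inhibitor gene and the one with the highest mean FPKM on this list, stood at 611 ± 525 and 428 ± 99.7 CPM (edgeR adjusted p = 0.493).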

How the data were processed

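Polyadenylated RNA of whole lung was sequenced in pairs with dUTP in the second strand, per the labels' protocols. The authors deposited raw read counts and FPKM values per gene and library. Per the submitters' processing notes, the tools were FastQC, HTSeq 2.0.2 and HISAT2 2.2.1, with build GRCm39. Annotation, strand setting and the handling of reads shared by paralogs: not given in the sources used here. Counting that drops shared reads would lower near-identical genes.

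Counts were tested with edgeR 4.0.16 in R 4.3.3 (filterByExpr with a count minimum of 10, TMM scaling, quasi-likelihood test, two-sided, Benjamini-Hochberg over 14478 genes, threshold 0.05) and checked on simulated data. The SE is the absolute log2 fold change over the square root of F. Alternatives were no filter, a mean FPKM of at least 1, median-ratio or total-count scaling, DESeq2 1.42.0, limma 3.58.1 on log2(FPKM + 1), blocking on replicate number, dropping 1 library at a time, and saline 2 and 3 or 1 and 4 left out. Members, lists and alternatives were chosen with earlier results of these data known. Named are the 9 members, and in each list the largest calls by fold (at most 3 rises and 3 falls) plus the gene with the highest mean FPKM. In marker lists it was the gene with the highest mean CPM, of which only those a result needs are printed. No 2 libraries agreed within sampling noise (lowest chi-square per degree of freedom 17.7, saline 1 and 4). Saline 2 and 3 came next at 26.0, and then bleomycin 2 and 4 at 37.4. The closest other pair within saline, 5 and 6, was at 108.5. Why saline 1 and 4, and saline 2 and 3, were so alike was not tested. Genes outside the deposited table were not analysed here. Total-count scaling moved the median log2 fold change of all genes from -0.04 to 0.14. The values of 3 called genes of the induction list are not reported here.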

Additional observations from a re-analysis of the deposited data

Results flagged for a closer look

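In groups of 5 or 6 libraries, 14 of 80 groups of the named genes had a library far from the rest by Dixon's ratio, and the groups share libraries. Chance gives about 1 in 20 only for normally distributed values, which was not checked for these CPM. Each flagged library was the highest of its group, so the count is not read as an excess. Among the 9 described genes Cp in bleomycin 3 was flagged, at 486 CPM against 351 to 374 CPM in the other bleomycin libraries, while saline libraries reached 1339.6 CPM. Bleomycin 1 stood highest for Chil3 (1194 CPM), Fth1 (3146 CPM), Nfkbia (358 CPM) and Serpinb1a (38.8 CPM), and it also held the highest Lrg1, Saa3 and Cebpd of the bleomycin group. Bleomycin 2 stood highest for Reg3g (74.1 CPM), bleomycin 3 for Ifng (0.361 CPM) and bleomycin 4 for Fabp4 (22.6 CPM). In saline, library 1 stood highest for Alb (68.5 CPM) and Fgg (19.2 CPM), library 4 for Fabp4 (193 CPM), and library 5 for Cebpd (157 CPM), Gzma (232 CPM) and Sftpc (30370.2 CPM).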

How the results depend on the processing

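With all libraries 1496 genes were called. The count was 2864 by DESeq2, 513 with a replicate block, 2778 without saline 2 and 3, 876 without saline 1 and 4, and 557 to 2118 with 1 library left out, lowest without bleomycin 2. Same-numbered libraries did not deviate together (correlations -0.222 to 0.0248). Differently numbered libraries were not compared in this way, so these values cannot decide whether the numbers pair libraries. Of the 9 members 5 passed, where 1496 of all genes did. By limma 3 members passed (1368 of all genes), each upwards. With the replicate block 1 member passed (513 of all genes), upwards, so not all of Serpina3n, Serpina3m and Lrg1 kept their pass there. Without bleomycin 2, 3, 4 or 5, 3 members passed. The count over all genes was also below 1496 in each of these fits. Over all fits without 1 library 3 to 6 members passed (557 to 2118 of all genes). The groups did not overlap in 3 members (8.41% of all genes), in 5 without saline 1 and 4 (11.5%), and in 3 to 5 without 1 library. For that last range the share over all genes was not taken. Leaving out libraries cannot lower these counts. Saa3 turned to 0.53 without saline 2 and 3 and Hp to 0.26 without saline 1 and 4. Other acute-phase genes (4 called) gave 9 by DESeq2, 1 with the block, 9 without saline 2 and 3, and 2 to 5 without 1 library. Induction genes (9) gave 5 by limma, 4 with the block, 15 without saline 2 and 3, and 4 to 10. Proteases (6) gave 3 with the block and 3 to 6. Iron genes (1) gave 3 by DESeq2, 2 by limma, 7 without saline 2 and 3, and 0 to 3. TGF-beta partners (2) gave 4 by DESeq2, 5 by limma, 1 without saline 1 and 4, and 1 to 4. Other serpins (2) gave 6 by DESeq2, 1 with the FPKM minimum, 1 with the block, 4 without saline 2 and 3, and 1 to 4. The cause of these shifts was not tested. Intervals cover counting error only, and genes near 1 CPM rest on few reads.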
